A study of Mus musculus with 18 samples.

Results

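Interferons induce a shared set of antiviral and GTPase genes, and 48 of these genes were followed here across regulatory and conventional T cells of mice with and without the costimulatory receptor CD28. The members were taken by gene symbol from a list of interferon-induced genes that includes the guanylate-binding proteins. That list was chosen with earlier results of these data known. All 48 symbols were listed in the deposited tables of 26665 genes. Testing required at least 3 libraries of the 18 to reach 1 FPKM, which 12265 genes and 47 of the 48 members did. The antiviral gene Ifi44 did not, with a range of 0.0965 to 1.25 FPKM.

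RNA was sequenced from spleen T cells sorted into 3 populations, with 3 libraries per group and 6 groups in all. All mice were C57BL/6 and carried Foxp3EGFP, a reporter in which the gene of the regulatory T cell (Treg) transcription factor Foxp3 drives green fluorescent protein. Wild-type (WT) groups came from mice with only this reporter, and CD28KO groups came from CD28-/-Foxp3EGFP mice, in which every cell carries the deletion. The populations are named in the labels as Nrp1+ Treg (tTreg, thymus-derived), Nrp1- Treg (pTreg, peripherally derived) and conventional T cells (Tconv). No treatment, age or sex was given in the sources used here. Nothing states that the 3 libraries of a group came from separate animals, so p-values measure only the spread between these libraries, which may be technical.

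Interferon signalling begins when type I interferon binds the receptor pair IFNAR1 and IFNAR2, or when interferon-gamma binds IFNGR1 and IFNGR2. Receptor-bound Janus kinases then activate transcription factors, among them STAT2, which acts with IRF9 in a complex that binds the interferon-stimulated response element (ISRE). Signalling from interferon-gamma acts through the gamma-activated site (GAS), and IRF1 made in response extends the programme through ISRE-like sites. The guanylate-binding proteins (GBPs) and immunity-related GTPases (IRGs) are interferon-induced GTPases that act on vacuoles holding pathogens, and they respond strongly to interferon-gamma. CD28 is the main costimulatory receptor of T cells and supports Treg numbers and T cell activation.

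Values are FPKM, the fragments per kilobase of transcript, scaled to the mapped fragments of the library, as the authors deposited them. Levels can therefore be compared between genes, while changes are differences of mean log2(FPKM + 1), a scale that understates the change of low genes. A gene was called when the Benjamini-Hochberg adjusted p of limma, taken over all 12265 tested genes, was under 0.05. That fit, of 1 mean per group to the deposited values of all 18 libraries, is called the main fit. The sort was visible in the marker genes: Foxp3 lay between 55.9 and 137 FPKM over the 12 Treg libraries, and Nrp1 between 55.6 and 83.5 in the 6 tTreg libraries against 0.449 to 0.911 in the 6 pTreg libraries. The whole-gene Cd28 value could not check the genotype, since it ranged from 31.5 to 82.8 FPKM in WT libraries and from 54.1 to 117 in CD28KO libraries. A set of 3 libraries stood apart from the rest, CD28KO Tconv replicate 3, WT pTreg replicate 1 and WT Tconv replicate 1, in which the single small RNA gene Mir5105 took 26.9, 20.8 and 19.4% of all FPKM. CD28KO Tconv replicate 3 also held 21.1 FPKM of Foxp3, against 0.067 and 0.205 in replicates 1 and 2. CD28KO tTreg replicate 3 held 8.14 FPKM of the Tconv transcript Pdlim4, against 0.126 and 0.0332 in replicates 1 and 2. Results that rest on these libraries are given with and without the first 3 of them.

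The promoters of the members were searched for the letters that the interferon factors bind. RefSeq promoter windows of GRCm38.p6, from 250 bases before to 50 bases after a transcript start, were matched for 34 of the 48 members. The ISRE core, GAAA followed by any 2 bases and a second GAAA, was found on either strand in 19 of these 34, against 3.99% of the 27025 genes with a window. The GAS core TTCNNNGAA, also searched on both strands, was found in 10 of the 34, against 9.55% of all genes. Both cores were present in 6 members, against 0.614% of all genes, and neither was present in 11. The 2 letter patterns can overlap within a window, and a match describes letters only. The 170 bases before the start are shown for 8 called members that hold a core, 5′ to 3′ on the gene's strand, with the matched letters in capitals. An ISRE core on the opposite strand reads TTTC, any 2 bases, TTTC.
Gbp1: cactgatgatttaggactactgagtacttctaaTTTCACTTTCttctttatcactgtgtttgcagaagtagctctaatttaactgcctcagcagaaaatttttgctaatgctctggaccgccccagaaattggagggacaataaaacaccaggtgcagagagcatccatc
Gbp2: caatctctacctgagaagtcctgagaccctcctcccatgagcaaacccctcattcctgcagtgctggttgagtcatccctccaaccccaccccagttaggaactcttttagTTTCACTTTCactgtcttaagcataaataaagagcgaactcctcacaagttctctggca
Gbp3: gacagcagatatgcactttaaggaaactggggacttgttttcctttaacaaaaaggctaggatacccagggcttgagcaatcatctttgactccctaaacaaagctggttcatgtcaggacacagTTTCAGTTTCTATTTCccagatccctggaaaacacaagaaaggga
Gbp5: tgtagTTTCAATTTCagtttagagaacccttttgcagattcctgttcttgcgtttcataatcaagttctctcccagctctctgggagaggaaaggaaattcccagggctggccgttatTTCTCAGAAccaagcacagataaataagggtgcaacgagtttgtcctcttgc
Igtp: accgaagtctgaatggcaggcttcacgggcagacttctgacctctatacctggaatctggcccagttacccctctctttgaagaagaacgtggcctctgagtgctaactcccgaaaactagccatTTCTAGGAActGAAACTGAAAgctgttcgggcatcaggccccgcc
Irf1: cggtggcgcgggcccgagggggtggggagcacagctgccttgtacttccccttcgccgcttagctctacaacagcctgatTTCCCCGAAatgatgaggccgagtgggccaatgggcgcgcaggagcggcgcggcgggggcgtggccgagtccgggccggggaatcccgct
Isg20: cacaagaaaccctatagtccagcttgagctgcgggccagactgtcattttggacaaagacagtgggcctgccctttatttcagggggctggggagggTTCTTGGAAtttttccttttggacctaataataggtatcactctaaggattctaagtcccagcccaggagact
Oas1a: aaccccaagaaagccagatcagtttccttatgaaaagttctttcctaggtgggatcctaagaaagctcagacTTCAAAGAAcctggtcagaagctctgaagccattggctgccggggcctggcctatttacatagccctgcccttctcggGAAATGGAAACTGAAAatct

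In Gbp1, the window lies at chr3:142594677-142594846 and the ISRE core begins 137 bases before the start. This gene, named Gbp2b in RefSeq, spans chr3:142594816-142619179 and lies beside Gbp2, at chr3:142620663-142638008. The Gbp2 window (chr3:142620493-142620662) has its ISRE core 59 bases before the start. The Gbp3 window (chr3:142559874-142560043) holds 2 overlapping ISRE cores, at 45 and 39 bases before the start. Gbp5 (window chr3:142496764-142496933) combines an ISRE core at 165 bases with a GAS core at 52 bases. Among the promoters outside the GBP cluster, that of Igtp (chr11:58199386-58199555) has a GAS core at 45 bases followed, after the bases ct, by an ISRE core at 34 bases. The Irf1 window (chr11:53769844-53770013) holds a GAS core and no ISRE core, as does that of Isg20 (chr7:78913254-78913423). Oas1a (minus strand, chr5:120907526-120907695) has 2 overlapping ISRE cores at 20 and 14 bases and a GAS core at 98 bases.

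Single-library values of the members ran from 0.0163 to 585 FPKM. Ifi27l2a, of the Ifi27 family of small interferon-induced proteins, was the most abundant at 566, 576 and 556 FPKM in WT tTreg. Tap1, a subunit of the peptide transporter for MHC class I, lay between 92.3 and 183 FPKM over the 18 libraries. Irf1, the transcription factor, lay between 80.9 and 201 FPKM. Of the RNA sensors and antiviral effectors, Zbp1 ranged from 35.3 to 70.8 FPKM, Isg15 (a ubiquitin-like modifier) from 12 to 33.8, and Ifit1 (which binds viral RNA) from 2.78 to 10.8. Summed over the 8 GBP genes, the mean was 259 ± 49.5 FPKM in WT tTreg, 286 ± 129 in WT pTreg and 173 ± 55.0 in WT Tconv (SD, n = 3 each). In the CD28KO groups the sum was 207 ± 8.68 in tTreg, 216 ± 35.2 in pTreg and 118 ± 27.8 in Tconv.

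WT pTreg had the highest of the 6 group means for 21 of the 47 tested members, against 2.19% of all tested genes. WT tTreg was highest for 14 and WT Tconv for 7, against 27.6 and 35.0% of all tested genes. CD28KO Tconv had the lowest mean for 38 of the 47, against 34.4% of all tested genes. WT pTreg reached its place although its replicate 1 had the lowest value of the group for 47 of 47 members, as it did for 90.2% of all tested genes. In that library the median log2(FPKM + 1) of the members was 3.88, against 5.0 and 5.1 in replicates 2 and 3. Since these are bulk samples, fewer cells of a type and less RNA per cell cannot be told apart in any of these values.

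**Figure D1:**
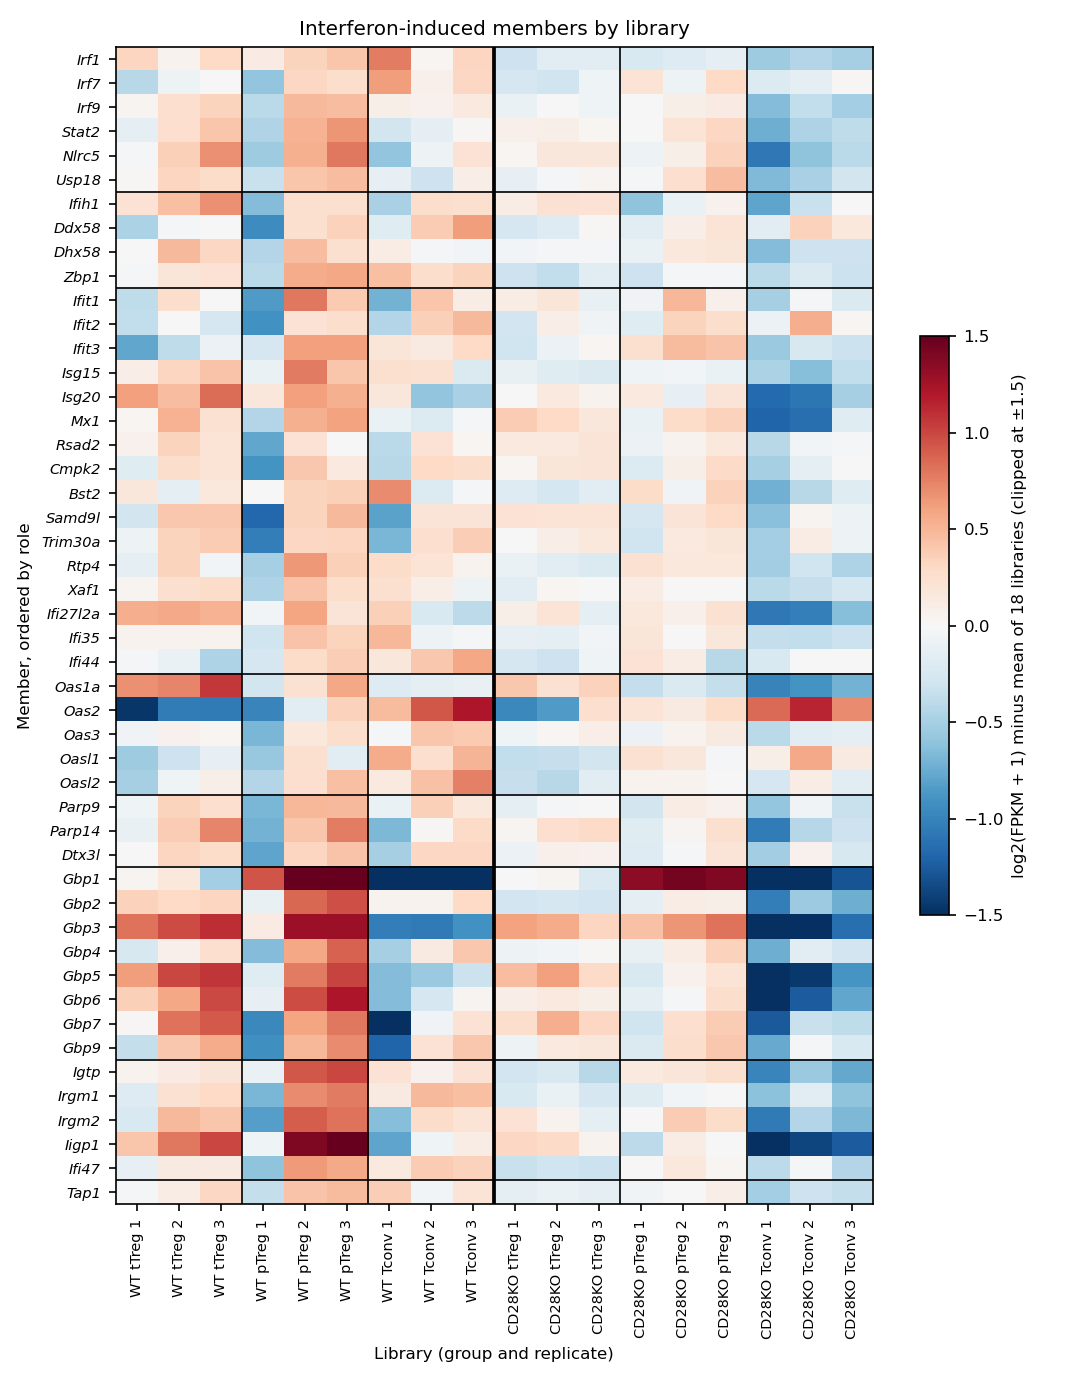
Each row is 1 of the 48 members, ordered by role, and each column is 1 of the 18 libraries; colour gives log2(FPKM + 1) minus the gene's mean over all libraries, clipped at 1.5 in either direction. The CD28KO Tconv columns are blue for most rows, and WT pTreg replicate 1 is blue for most rows beside its red neighbours. Gbp3 changes from red to blue between Treg and Tconv columns. Gbp5, Gbp6 and Iigp1 are red in most Treg columns and blue in most Tconv columns. Gbp1 is red in pTreg, near white or pale blue in tTreg and blue in Tconv columns.

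Of the 8 guanylate-binding protein genes, Gbp1, Gbp3 and Gbp5 were called higher in all 4 Treg groups against the Tconv group of the same genotype. In WT tTreg against WT Tconv, 5 of the 47 members were called higher (Gbp1, Gbp3, Gbp5, Isg20 and Oas1a) and 2 lower (Oas2 and Oasl1), where 12.6% of all tested genes were called. In WT pTreg against WT Tconv, 3 were higher (Gbp1, Gbp3 and Gbp5) and none lower, with 4.49% of all genes called. In CD28KO tTreg against CD28KO Tconv, 9 were higher and Oas2 was lower, with 12.1% of all genes called. In CD28KO pTreg against CD28KO Tconv, 10 were higher and none lower, with 5.85% of all genes called. Comparisons of tTreg and pTreg within a genotype share the same Tconv libraries. The median change of the members was 0.16, 0.07, 0.35 and 0.48 in these comparisons, beside -0.02, -0.21, 0.09 and 0.14 over all tested genes.

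Gbp1, which had the largest single change, was measured at 2.27, 2.56 and 1.25 FPKM in WT tTreg, 5.12, 16.2 and 14.3 in WT pTreg, and 0.0975, 0.0356 and 0.0901 in WT Tconv. Among CD28KO libraries it had 2.2, 2.27 and 1.74 FPKM in tTreg, 7.11, 7.62 and 7.36 in pTreg, and 0.0186, 0.0163 and 0.304 in Tconv. Every pTreg library lay above every tTreg library, and all Treg libraries lay above all Tconv libraries. The change against Tconv was 1.47 ± 0.29 (SE) in WT tTreg, 3.45 ± 0.29 in WT pTreg, 1.47 ± 0.29 in CD28KO tTreg and 2.92 ± 0.29 in CD28KO pTreg (limma adjusted p = 0.0017, 4.69e-06, 0.00158 and 1.58e-05). Reads from stretches that GBP genes share could be split between them by the authors' estimation, so values within the family carry that uncertainty.

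Gbp3 had 20.6, 23.1 and 25.4 FPKM in WT tTreg, 12.4, 29 and 28.9 in WT pTreg and 4.98, 4.89 and 5.55 in WT Tconv. It had 17.6, 17.1 and 14.3 FPKM in CD28KO tTreg, 15.6, 18.4 and 20.7 in CD28KO pTreg and 1.1, 1.51 and 4.61 in CD28KO Tconv. No Treg library overlapped a Tconv library, and the highest CD28KO Tconv value was replicate 3, the library that also held Foxp3 transcripts. The changes were 1.97 ± 0.32 and 1.90 ± 0.32 for WT tTreg and pTreg, and 2.48 ± 0.32 and 2.63 ± 0.32 for CD28KO tTreg and pTreg (limma adjusted p = 0.000386, 0.00171, 4.73e-05 and 0.000103). Within the GBP family, Gbp3 made up 9.01% of summed FPKM in WT tTreg and 8.37% in WT pTreg, against 3.19% in WT Tconv and 1.95% in CD28KO Tconv. Gbp4 had the largest share in every group, from a mean of 21.7% in WT tTreg to 35.5% in CD28KO Tconv.

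Gbp5, which promotes inflammasome assembly, had 17.7, 23.3 and 24.4 FPKM in WT tTreg, 9.68, 19.7 and 23.4 in WT pTreg and 6.72, 7.24 and 8.66 in WT Tconv. The CD28KO values were 15.6, 17.5 and 13.8 FPKM in tTreg, 9.3, 11.7 and 13 in pTreg and 2.36, 3.42 and 5.54 in Tconv. Treg and Tconv did not overlap within either genotype. Its change was 1.41 ± 0.28 in WT tTreg, 1.85 ± 0.28 in CD28KO tTreg and 1.41 ± 0.28 in CD28KO pTreg (limma adjusted p = 0.00202, 0.000179 and 0.00525). The WT pTreg change of 1.05 ± 0.28 had an adjusted p of 0.0434, which rose to 0.112 and 0.148 without WT pTreg replicates 2 and 3, and to 0.117, 0.124 and 0.0788 without WT Tconv replicates 1, 2 and 3. It also missed the threshold without any 1 of 8 libraries of other groups (0.0556 to 0.0618), with a pseudocount of 0.1 (0.0576), without the filter (0.0844) and with a fit to these groups alone (0.376).

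Gbp6 had 37.2, 43.3 and 58 FPKM in WT tTreg, 26.2, 57.6 and 68 in WT pTreg and 17.9, 23.9 and 29.5 in WT Tconv. In the CD28KO groups it had 30.9, 31.8 and 30.6 FPKM in tTreg, 26, 28.2 and 34.8 in pTreg and 9.29, 11.5 and 16.3 in Tconv. It was called higher in CD28KO tTreg (1.30 ± 0.30, limma adjusted p = 0.00599) and CD28KO pTreg (1.22 ± 0.30, adjusted p = 0.0202). The latter had an adjusted p of 0.0562 and 0.102 without CD28KO pTreg replicates 2 and 3, and of 0.121 and 0.0757 without CD28KO Tconv replicates 1 and 2. In WT, the changes of 0.93 and 0.98 had adjusted p of 0.0501 and 0.0799. Gbp2 was called higher in CD28KO pTreg (0.79 ± 0.22, adjusted p = 0.0466), and 14 of the 18 single-library omissions, among them each of the 6 libraries compared, lifted that p to between 0.0553 and 0.238, as did having no filter (0.0788). Gbp4, Gbp7 and Gbp9 were not called in any comparison with Tconv in the main fit, though Gbp7 was in settings given below.

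**Figure D2:**
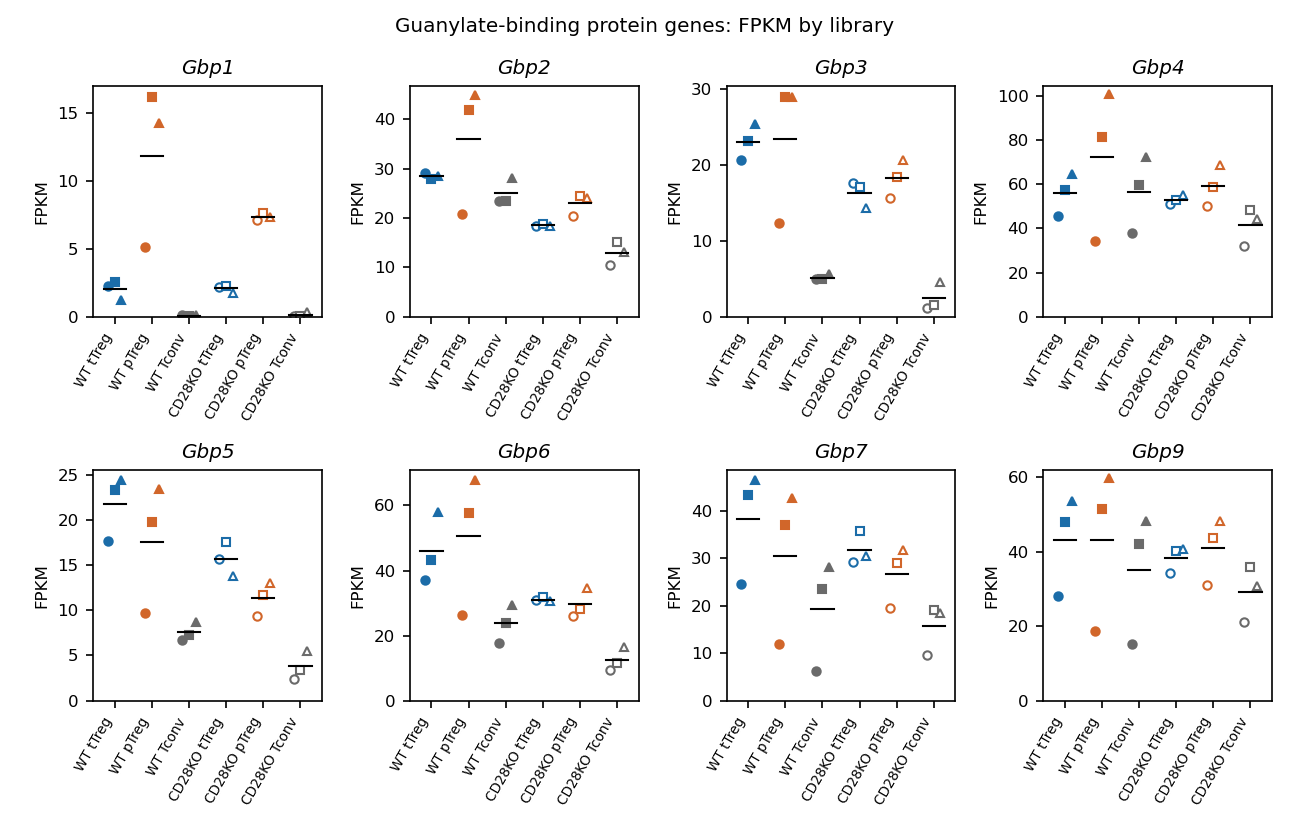
FPKM on a linear axis from 0 for the 8 GBP genes, 1 panel a gene, with 1 point per library (circle, square and triangle for replicates 1, 2 and 3, filled for WT and open for CD28KO) and a bar at each group mean. Gbp1 is near 0 in Tconv and highest in pTreg, Gbp3 and Gbp5 are high in both Treg populations, and the filled circle of WT pTreg is the lowest of its group in all 8 panels.

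Of the IRGs, Iigp1, an effector that attacks the membrane around intracellular parasites, had 20.1, 26.4 and 30.8 FPKM in WT tTreg, 14.1, 40.6 and 45.8 in WT pTreg and 8.11, 14.1 and 16 in WT Tconv. It had 18.6, 18.2 and 15.4 FPKM in CD28KO tTreg, 11, 16.1 and 14.8 in CD28KO pTreg and 2.74, 5.07 and 5.66 in CD28KO Tconv. Only WT pTreg replicate 1 reached into the range of its Tconv counterpart. Iigp1 was called higher in CD28KO tTreg (1.78 ± 0.36, limma adjusted p = 0.00219) and CD28KO pTreg (1.47 ± 0.36, adjusted p = 0.0209). The pTreg call was lost without CD28KO pTreg replicate 2 or 3 (adjusted p = 0.0882 and 0.0814), without CD28KO Tconv replicate 1 (0.131) and without the filter (0.0542). The WT changes were 0.99 and 1.21, with adjusted p of 0.0943 and 0.0723. Igtp, another IRG, had 77.2, 79.3 and 82.4 FPKM in CD28KO pTreg against 34.6, 47 and 40.4 in CD28KO Tconv, a change of 0.96 ± 0.22 (adjusted p = 0.0136), which did not pass without CD28KO pTreg replicate 3 (0.0603) or CD28KO Tconv replicate 1 (0.0872). Irgm1, Irgm2 and Ifi47, the remaining IRGs, were not called against Tconv in the main fit, though Irgm2 was in settings given below.

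The oligoadenylate synthetases (OAS), which activate the nuclease RNase L on sensing double-stranded RNA, went in opposite directions. Oas1a had 11.8, 12.2 and 15.6 FPKM in WT tTreg against 5.99, 6.23 and 6.37 in WT Tconv, and 9.53, 8.37 and 9.13 in CD28KO tTreg against 2.98, 3.29 and 3.86 in CD28KO Tconv. The groups did not overlap, and Oas1a was higher in tTreg by 0.97 ± 0.19 in WT and by 1.2 ± 0.19 in CD28KO (limma adjusted p = 0.00156 and 0.000238). Oas2 had 2.12, 3.15 and 3.09 FPKM in WT tTreg against 10.9, 15.3 and 18.8 in WT Tconv, and 3.38, 3.77 and 9.17 in CD28KO tTreg against 14.4, 17.9 and 13 in CD28KO Tconv. It was lower in tTreg without overlap, with changes of -2.06 ± 0.33 in WT and -1.42 ± 0.33 in CD28KO (limma adjusted p = 0.000295 and 0.00673). The high CD28KO tTreg value was replicate 3, which held Pdlim4 at 8.14 FPKM, and the part of Tconv transcripts in that Oas2 value was not tested.

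pTreg lay between these groups for Oas2, with 3.3, 6.68 and 9.88 FPKM in WT and 8.9, 8.39 and 9.37 in CD28KO. Its changes against Tconv of -1.14 and -0.69 were not called (limma adjusted p = 0.0657 and 0.313). Oasl1, a catalytically inactive relative that restrains Irf7 translation, had 2.17, 2.7 and 3.23 FPKM in WT tTreg against 5.76, 4.5 and 5.53 in WT Tconv. Its change was -0.76 ± 0.20 (adjusted p = 0.0153), which became 0.0812 without WT tTreg replicate 1, and 0.054 and 0.0565 without WT Tconv replicates 1 and 3. Oas3 and Oasl2 were not called in any comparison with Tconv in the main fit, though both were in settings given below. Oas1a shares close sequence with Oas1g, which was also called higher in tTreg of both genotypes (0.54 and 0.49, adjusted p = 0.00715 and 0.0133).

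Isg20, an RNA exonuclease, had 26.9, 24.1 and 31.5 FPKM in WT tTreg against 19.5, 11.1 and 12 in WT Tconv. The CD28KO values were 17.3, 19.1 and 17.9 FPKM in tTreg, 19.1, 15.7 and 19.8 in pTreg and 7.15, 7.58 and 11.9 in Tconv. It was higher in WT tTreg by 0.94 ± 0.22, in CD28KO tTreg by 0.98 ± 0.22 and in CD28KO pTreg by 0.99 ± 0.22 (limma adjusted p = 0.00696, 0.00473 and 0.011). The WT call had an adjusted p of 0.0547 in a fit to those groups alone, and the pTreg call 0.0595, 0.0769 and 0.0622 without CD28KO pTreg replicate 3, CD28KO Tconv replicate 1 and CD28KO Tconv replicate 2. Ifi27l2a had 412, 448 and 354 FPKM in CD28KO tTreg, 431, 408 and 456 in CD28KO pTreg and 184, 190 and 249 in CD28KO Tconv. Its changes were 0.97 ± 0.20 and 1.06 ± 0.20 (adjusted p = 0.00318 and 0.0039). Mx1, a dynamin-like GTPase whose C57BL/6 allele is known to be defective, had 4.4, 4.11 and 3.68 FPKM in CD28KO tTreg, 2.88, 4.05 and 4.3 in CD28KO pTreg and 0.807, 0.898 and 2.67 in CD28KO Tconv. The called changes of Mx1 were 1.12 ± 0.28 and 1.01 ± 0.28 (adjusted p = 0.0118 and 0.0436). The tTreg call was lost without CD28KO Tconv replicate 1 or 2 (0.0792 and 0.0693), and the pTreg call without any 1 of 13 libraries (0.0513 to 0.227), without the filter (0.103) and in a fit to those groups alone (0.095).

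**Figure D3:**
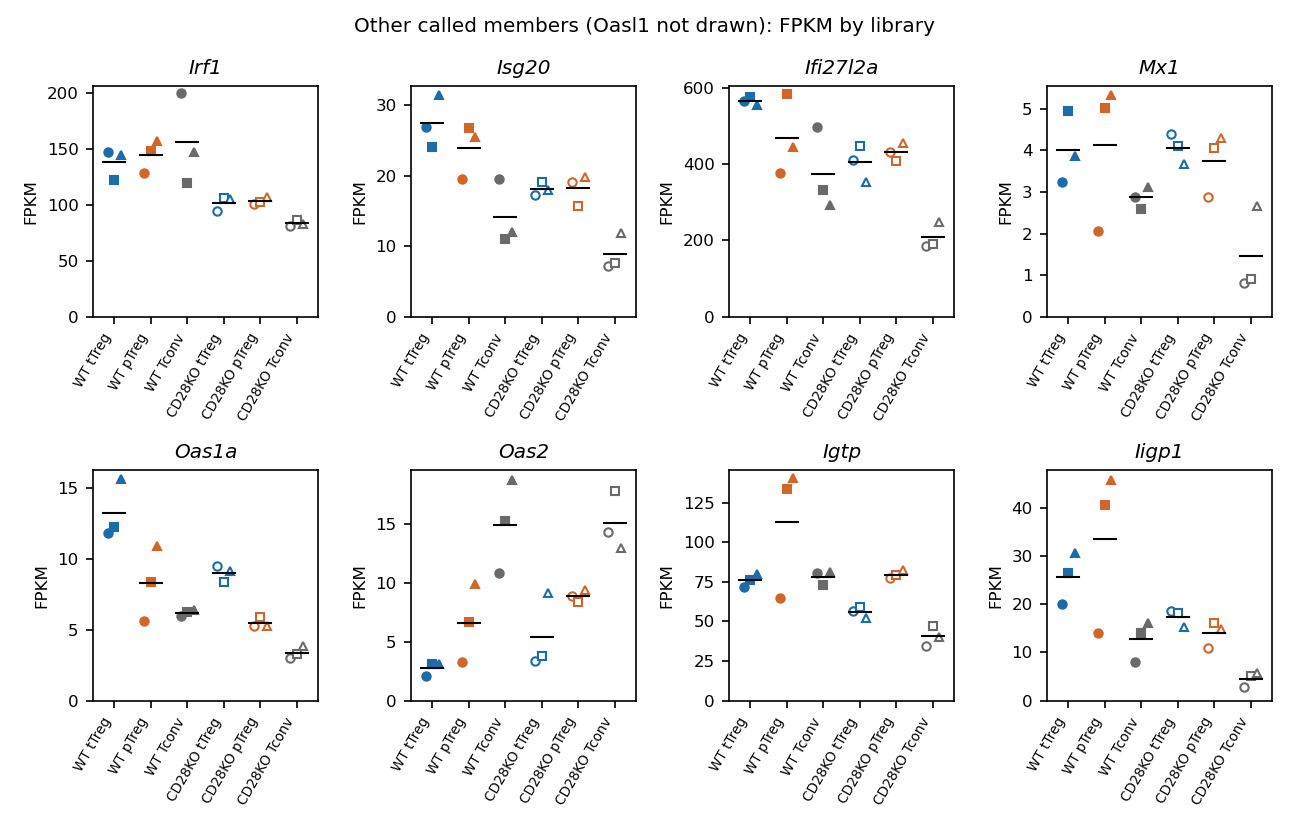
FPKM on a linear axis from 0 for 8 called members outside the GBP family, with 1 point per library (circle, square and triangle for replicates 1, 2 and 3, filled for WT and open for CD28KO) and a bar at each group mean. Oas1a is highest in tTreg and Oas2 in Tconv, and the open triangle of CD28KO Tconv lies above its circle and square for Isg20, Ifi27l2a and Mx1.

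The transcription factors, RNA sensors, Parp9 group and most effectors were not called between Treg and Tconv in the main fit. None of Irf1, Irf7, Irf9, Stat2, Nlrc5 and Usp18 passed there, with changes from -0.50 to 0.82 over the 4 comparisons. Other settings, given below, called some of these genes. Irf7, which drives type I interferon genes, had 30.1, 38.4 and 40.2 FPKM in WT tTreg against 62.8, 42.5 and 50.5 in WT Tconv. Stat2 had 21.8, 21.9 and 20.9 FPKM in CD28KO tTreg against 12, 14.6 and 15.6 in CD28KO Tconv. Among the ADP-ribosylation genes, Parp14 had 23.4, 33.3 and 42.7 FPKM in WT tTreg against 15.5, 25.6 and 31.3 in WT Tconv, which overlapped.

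More members passed when the replicate number was a block. A pairing, read from the deviations of same-numbered libraries and not from labels, allowed this for 3 of the 4 comparisons with Tconv. The number called went from 7 to 12 in WT tTreg, from 10 to 16 in CD28KO tTreg and from 10 to 18 in CD28KO pTreg, where 17.5, 16.6 and 9.38% of all genes were called. Stat2, Nlrc5 and Parp14 were among them in both CD28KO Treg groups, Ifih1 in CD28KO tTreg, and Irf9, Usp18 and Irgm2 in CD28KO pTreg. Gbp7 was among them in tTreg of both genotypes, and Oasl2 in WT tTreg. Without the 3 libraries that stood apart, 14, 13, 22 and 25 members were called in WT tTreg, WT pTreg, CD28KO tTreg and CD28KO pTreg against Tconv, where 19.2, 8.23, 20.1 and 17% of all genes were. Irf9, Nlrc5, Stat2, Usp18, Parp14 and Irgm2 were then called in both CD28KO Treg groups. Gbp7 and Ifih1 were called in CD28KO tTreg, Dhx58 in CD28KO pTreg, Oas3, Oasl2 and Ddx58 in WT tTreg, and Stat2 in WT pTreg. For WT pTreg, the members whose libraries all lay above all Tconv libraries went from 3 of 47 to 35 of 47, beside 3.82 and 30.8% of all genes. Without CD28KO pTreg replicate 3 or without CD28KO Tconv replicate 1, 4 members were called in CD28KO pTreg, where 3.5 and 3.19% of all genes were.

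**Figure D4:**
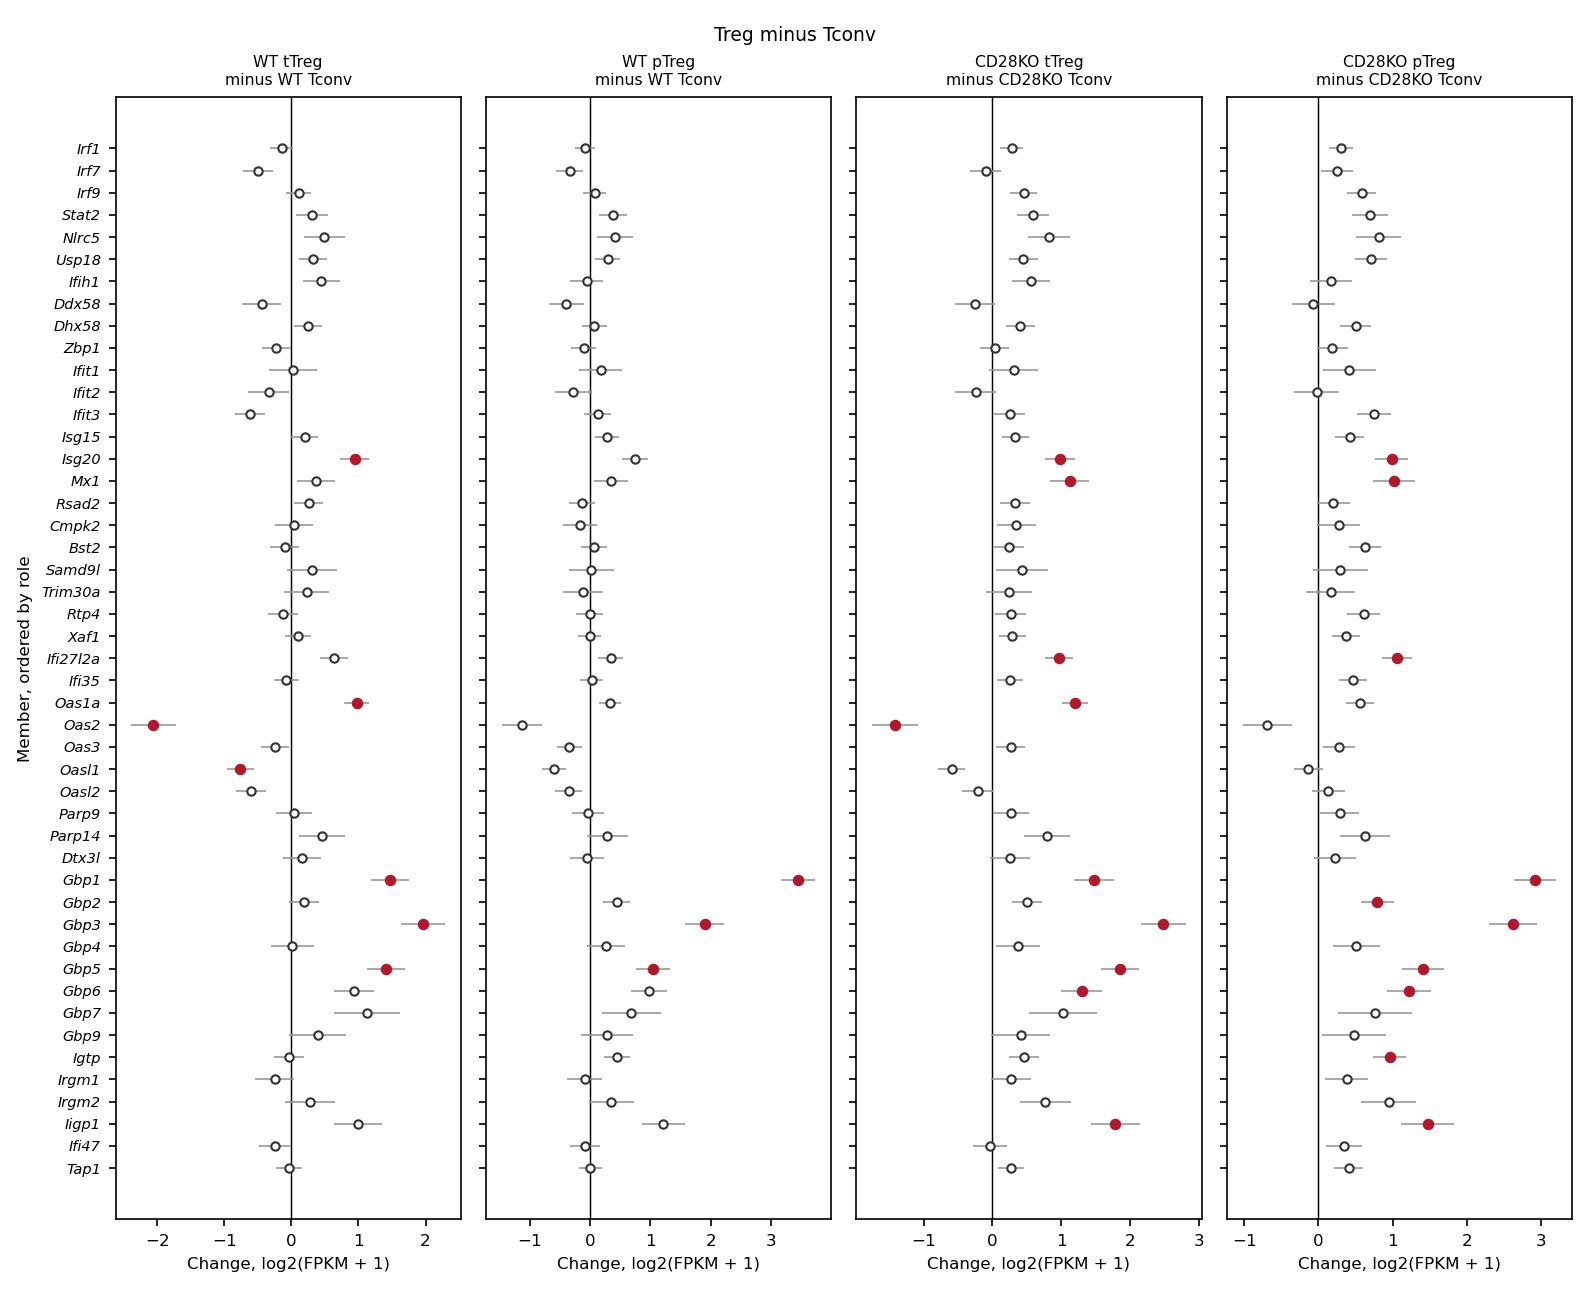
Points are the change in mean log2(FPKM + 1) of the 47 tested members, Treg minus Tconv, in 4 panels with their own horizontal scales; lines are 1 SE and filled red points passed an adjusted p under 0.05. Gbp1, Gbp3 and Gbp5 are filled in all 4 panels, Oas2 is filled below 0 for tTreg of both genotypes, and more points are filled in the CD28KO panels.

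Markers of T cell state and of other cells differed between some of these groups. The 6 memory and effector markers (Cd44, Ccl5, Cxcr3, S100a4, Itgb1 and Ifng) summed to 254 to 360 FPKM in CD28KO tTreg and 124 to 160 in CD28KO pTreg, both above the 28 to 69.6 in CD28KO Tconv. In WT they summed to 330 to 404 FPKM in tTreg, 212 to 228 in pTreg and 221 to 622 in Tconv. The summed FPKM of the 4 B cell markers was 10.6 to 12.3 in WT tTreg, 4.79 to 7.6 in WT pTreg and 1.35 to 1.9 in WT Tconv, and in CD28KO 5.51 to 6.08, 4.29 to 6.16 and 0.922 to 3.18. Most of it in WT tTreg was Cd79b, at 9.9, 9.89 and 9.85 FPKM in WT tTreg, while the defining B cell gene Ms4a1 was at or near 0, at most 0.224 FPKM in any library. The 8 myeloid and dendritic markers summed to 5.77 to 12 FPKM in WT tTreg, 3.72 to 13.4 in WT pTreg and 4.15 to 5.75 in WT Tconv, and to 4.96 to 12.4, 3.58 to 13.2 and 2.02 to 3.53 in CD28KO. That sum was mostly Lyz2, while Csf1r was at most 0.739 FPKM and Itgax at most 0.157. Their part in the results was not tested.

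Between the Treg populations, Gbp1 was the member called in both genotypes, lower in tTreg than in pTreg. Its values, given above, did not overlap in either genotype, and its change was -1.98 ± 0.29 in WT and -1.45 ± 0.29 in CD28KO (limma adjusted p = 0.000472 and 0.00566). The CD28KO change was -1.79 with a pseudocount of 0.1, at an adjusted p of 0.0535. No other member was called, where 4.93% of all tested genes were called in WT and 4.08% in CD28KO. The median change of members was -0.05 in WT and -0.11 in CD28KO, beside 0.19 and -0.03 over all tested genes.

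Oas1a and Oas2 again pointed in opposite directions between tTreg and pTreg. Oas1a had 11.8, 12.2 and 15.6 FPKM in WT tTreg against 5.59, 8.34 and 10.9 in WT pTreg, and 9.53, 8.37 and 9.13 in CD28KO tTreg against 5.25, 5.87 and 5.24 in CD28KO pTreg. No tTreg library of Oas1a overlapped a pTreg library, with changes of 0.65 and 0.63 that missed the threshold (limma adjusted p = 0.0626 and 0.0823). With the replicate number as a block, which the pairing allowed in both, 4 members were called in WT (Gbp1, Ifit3 and Oas2 lower in tTreg, Oas1a higher), and 2 in CD28KO (Gbp1 lower, Oas1a higher), where 9.98 and 6.53% of all genes were called. Without the 3 libraries that stood apart, 10 members were lower in WT tTreg than in WT pTreg, where 7.48% of all genes were called. They were Gbp1, Gbp2, Gbp4, Ifi35, Ifi47, Ifit3, Igtp, Irgm1, Oas2 and Zbp1, and the change of Igtp was -0.84 against -0.49 with all libraries. In CD28KO, 4 were then called (Gbp1, Ifi47 and Igtp lower, Oas1a higher), where 15.2% of all genes were, and quantile normalization gave 1 higher and 4 lower in place of 0 and 1, with 9.29% of all genes called.

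CD28-deficient Tconv had lower values than WT Tconv for 44 of the 47 members, as it had for 78.1% of all tested genes, and Irf1 was the member that passed the test. Irf1 had 201, 120 and 148 FPKM in WT Tconv and 80.9, 86.9 and 82.9 in CD28KO Tconv. The groups did not overlap, and the highest library was WT Tconv replicate 1. The change was -0.86 ± 0.17 (limma adjusted p = 0.0185), where 0.791% of all tested genes were called, all of them lower in CD28KO Tconv. It no longer passed without WT Tconv replicate 1 (-0.67, adjusted p = 0.066), without CD28KO Tconv replicate 1 (-0.84, adjusted p = 0.126), without CD28KO Tconv replicate 2 (-0.89, adjusted p = 0.0714) or with a fit to these 2 groups alone (adjusted p = 0.445).

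No other member passed. The median change of the members was -0.50, beside -0.16 over all tested genes, and 25 of 47 had an unadjusted p under 0.05. The share of all tested genes under that unadjusted threshold was not computed, here or for the counts below. All libraries of CD28KO Tconv lay below all of WT Tconv for 24 members, beside 18.2% of all tested genes. Igtp had 80.9, 72.8 and 81 FPKM in WT Tconv against 34.6, 47 and 40.4 in CD28KO Tconv (-0.94 ± 0.22, adjusted p = 0.0681). Gbp2 had 23.4, 23.4 and 28.1 FPKM against 10.5, 15.1 and 13.2 (-0.91 ± 0.22, adjusted p = 0.0851). Neither pair of groups overlapped. Iigp1 (-1.32, adjusted p = 0.153), Oas1a (-0.72, adjusted p = 0.125), Zbp1 (-0.66, adjusted p = 0.282) and Isg15 (-0.58, adjusted p = 0.328) were likewise separate in their FPKM and not called.

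With the replicate number as a block, which the pairing of the Tconv libraries allowed, 7 members were called lower in CD28KO Tconv. These were Gbp2, Gbp5, Gbp6, Igtp, Iigp1, Irf1 and Oas1a, where 1.26% of all genes were called. Without the 3 libraries that stood apart, 16 members were called lower, where 2.49% of all genes were called, and 44 of 47 members did not overlap, beside 38.9% of all genes. The 16 were Gbp2, Gbp3, Gbp5, Gbp6, Ifi27l2a, Ifi47, Igtp, Iigp1, Irf1, Irf9, Irgm1, Isg20, Mx1, Oas1a, Oas3 and Zbp1. The largest of these changes were -1.75 for Iigp1 and -1.44 for Gbp3. Leaving out WT pTreg replicate 1 alone, a library that is in neither Tconv group but enters the shared estimate of the spread, gave 15, where 2.11% of all genes were called.

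Genes of activated and memory T cells differed in the same libraries. The memory and effector markers summed to 622, 311 and 221 FPKM in WT Tconv and to 28, 35.9 and 69.6 in CD28KO Tconv. The 5 naive markers summed to 1286 to 1487 FPKM in WT Tconv and 1179 to 1553 in CD28KO Tconv. WT Tconv replicate 1, highest for Irf1, was also highest for the memory sum and for the 6 heat shock and handling genes, at 1060 FPKM against 338 and 570 in replicates 2 and 3. The part of these transcripts in the members' values was not tested.

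In tTreg and pTreg, no member was called between CD28KO and WT by limma. In each comparison 0.204% of all tested genes were called. An unadjusted p under 0.05, for which no share over all genes was computed, was reached by 6 of 47 members. The median change of the members was -0.22 in tTreg, beside -0.05 over all genes, and -0.08 in pTreg, beside 0.19 over all genes. In tTreg, 37 members had a change below 0, beside 61.8% of all genes, and for 19 all CD28KO libraries lay below all WT libraries, beside 15.1% of all genes. In pTreg, 31 members had a change below 0, beside 16.3% of all genes, and Irf1 was the 1 member without overlap, beside 1.86% of all genes.

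Irf1 had 148, 122 and 145 FPKM in WT tTreg against 94.5, 106 and 105 in CD28KO tTreg, and 129, 148 and 158 in WT pTreg against 101, 103 and 108 in CD28KO pTreg. The WT and CD28KO libraries of Irf1 did not overlap in any of the 3 populations, and its changes in tTreg and pTreg were -0.43 ± 0.17 and -0.47 ± 0.17 (limma adjusted p = 0.959 and 0.729). Gbp2 had 29.1, 27.9 and 28.5 FPKM in WT tTreg against 18.4, 18.8 and 18.3 in CD28KO tTreg, a change of -0.60 ± 0.22 (adjusted p = 0.879). In pTreg, Gbp2 had 20.9, 41.9 and 45 FPKM in WT against 20.4, 24.4 and 24.1 in CD28KO. There the WT group split, with replicate 1 inside the CD28KO range and the other 2 libraries above it. Iigp1 did the same, with 14.1, 40.6 and 45.8 FPKM in WT pTreg against 11, 16.1 and 14.8 in CD28KO pTreg (-1.06 ± 0.36, adjusted p = 0.656).

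Without the 3 libraries that stood apart, 10 members were lower in CD28KO pTreg, where 0.984% of all genes were called. They were Gbp1, Gbp2, Gbp5, Gbp6, Igtp, Iigp1, Irf1, Irgm1, Oas1a and Zbp1, with changes from -0.56 for Irf1 to -1.58 for Iigp1. The members' median was then -0.42, beside -0.06 over all genes, and 37 of 47 members did not overlap, beside 13.8% of all genes. This setting leaves 2 WT pTreg libraries, and leaving out WT pTreg replicate 1 alone gave 5 members, where 0.294% of all genes were called. The memory and effector markers summed to 228, 212 and 217 FPKM in WT pTreg and to 157, 124 and 160 in CD28KO pTreg, and their part in the members' values was not tested. In tTreg, which keeps all 6 libraries in this setting, Gbp2 (-0.60, limma adjusted p = 0.0397) and Isg20 (-0.57, adjusted p = 0.0339) passed, where 1.07% of all genes were called.

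**Figure D5:**
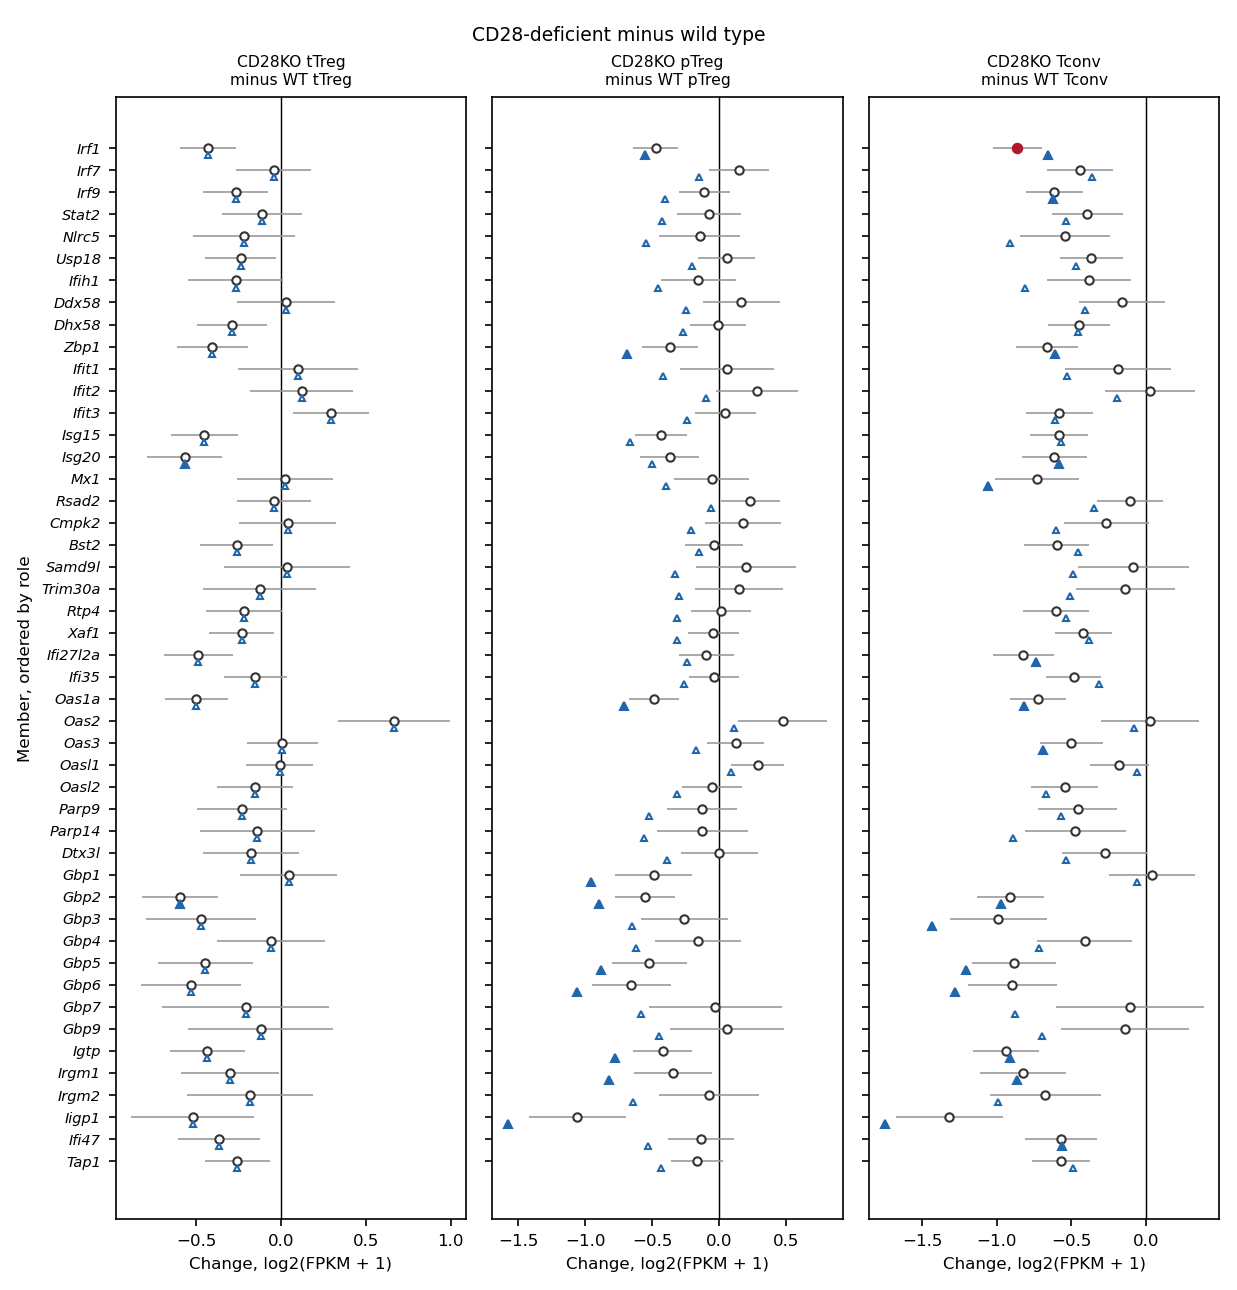
Points are the change in mean log2(FPKM + 1) of the 47 tested members, CD28KO minus WT, in tTreg, pTreg and Tconv, with 1 SE lines and a horizontal scale of its own for each panel; circles use all 18 libraries and triangles leave out the 3 that stood apart, and filled symbols passed an adjusted p under 0.05. Irf1 in Tconv is the 1 filled circle, triangles in pTreg lie to the left of their circles, and 2, 10 and 16 triangles are filled from left to right.

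Whether the CD28 difference varied between populations was tested directly. No member was called by limma for tTreg against pTreg, tTreg against Tconv or pTreg against Tconv, where 0.0245, 0.122 and 0.0734% of all tested genes were called. Unadjusted p under 0.05 was reached by 0, 1 and 1 members, and the smallest adjusted p among members was 0.863, 1 and 0.467. The lone members were Ifit3 for tTreg against Tconv, at 0.87 ± 0.32, and Ifi27l2a for pTreg against Tconv, at 0.73 ± 0.29. The members' median differences were -0.11, 0.31 and 0.38, beside -0.24, 0.12 and 0.36 over all genes. Without the 3 libraries that stood apart, no member was called either, and 4, 15 and 5 had an unadjusted p under 0.05. The medians were then 0.22, 0.38 and 0.18, beside 0.01, 0.14 and 0.14 over all genes.

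Among the genes upstream of the members, ligands were scarce. Values were found for 15 of the 17 interferon ligands searched, of which Ifng was the 1 that passed the filter, and Ifnb1 was listed at 0 in all 18 libraries. Ifng had 28.3, 6.58 and 8.45 FPKM in WT Tconv and 0.69, 1.1 and 2.73 in CD28KO Tconv, which did not overlap and differed by -2.44 ± 0.50 (limma adjusted p = 0.028). That call was lost without WT Tconv replicate 1 (-1.84, adjusted p = 0.186), without CD28KO Tconv replicate 1 or 2 (0.192 and 0.135), without the filter (0.0769), after quantile normalization (0.17) and in a fit to those groups alone (0.385). In CD28KO tTreg it had 13.3, 19 and 10.9 FPKM, and in CD28KO pTreg 1.75, 1.12 and 0.99. It was thus higher in CD28KO tTreg than in CD28KO pTreg by 2.74 ± 0.50 and than in CD28KO Tconv by 2.67 ± 0.50 (adjusted p = 0.00292 and 0.00111). In WT tTreg, with 14.4, 5.52 and 8.53 FPKM, no such difference was called.

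Of the 16 listed receptors, kinases, factors and inhibitors, none was called between CD28KO and WT by limma. At an unadjusted p under 0.05 there were 0 in tTreg, 2 in pTreg and 5 in Tconv. Against Tconv, 4, 1, 5 and 5 of 16 were called higher in WT tTreg, WT pTreg, CD28KO tTreg and CD28KO pTreg. The share of all tested genes called there, in either direction, was 12.6, 4.49, 12.1 and 5.85%. Irf5, a factor downstream of nucleic acid receptors, was called in all 4, from 1.08 in WT pTreg to 2.54 in CD28KO tTreg. The WT pTreg call was lost without WT pTreg replicate 2 or 3 (adjusted p = 0.0768 and 0.0807), without WT Tconv replicate 2 or 3 (0.0682 and 0.094), with a pseudocount of 0.1 (0.0662), without the filter (0.0502) and in a fit to those groups alone (0.111). Socs1, an inhibitor of Janus kinases, had 77.4, 77 and 86.1 FPKM in WT tTreg against 65.2, 30.9 and 26.3 in WT Tconv (1.07 ± 0.29, adjusted p = 0.0203). It did not pass without WT tTreg replicate 2 or 3 (0.0527 and 0.0788), without WT Tconv replicate 2 or 3 (0.0887 and 0.111) or in a fit to those groups alone (0.108). Ifnar2 and Irf8 were higher in tTreg of both genotypes against Tconv, by 0.68 and 1.15 in WT and by 1.05 and 1.75 in CD28KO. The WT call of Ifnar2 was lost without WT tTreg replicate 2 or 3 (adjusted p = 0.0515 and 0.108) and without WT Tconv replicate 1 (0.066). Ifnar2 and Socs1 were also called higher in CD28KO pTreg against Tconv. That Ifnar2 call was lost without CD28KO pTreg replicate 2 or 3 (0.127 and 0.15) or CD28KO Tconv replicate 1 or 2 (0.154 and 0.091). That Socs1 call was lost without CD28KO pTreg replicate 1 (0.0718) or CD28KO Tconv replicate 1 or 2 (0.0767 and 0.0696). Ifngr1 was called higher in both CD28KO Treg groups (0.98 and 1.24), and Ifnar1 was not called in these comparisons. Between Treg populations, Irf5 was higher in tTreg of both genotypes (1.18 and 1.17) and Socs3 was lower in CD28KO tTreg (-1.11, adjusted p = 0.00472). With a pseudocount of 0.1 neither Irf5 call passed (adjusted p = 0.103 in WT and 0.113 in CD28KO). The WT call was also lost without WT tTreg replicate 3 (0.0526) and in a fit to those groups alone (0.0886). The CD28KO call was lost without CD28KO tTreg replicate 1 or 2 (0.0726 and 0.0554) and without CD28KO pTreg replicate 1 or 2 (0.0543 and 0.0545). Irf8 was also called higher in CD28KO tTreg than in CD28KO pTreg, by 1.06. Its call was lost without any CD28KO tTreg library or CD28KO pTreg replicate 1 or 2 (adjusted p = 0.0872 to 0.145). It was also lost with a pseudocount of 0.1 (0.0655) and without the filter (0.0553).

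A further list held interferon-induced genes outside the members. Of its 43 tested genes, 4 were higher and 1 (Slfn1) lower in WT tTreg against Tconv, 2 higher in WT pTreg, 5 in CD28KO tTreg and 4 in CD28KO pTreg. Of all tested genes, 12.6, 4.49, 12.1 and 5.85% were called in these 4 comparisons, in either direction. Omission of any 1 of the 6 libraries compared ended the Slfn1 call (adjusted p = 0.0533 to 0.143), as did having no filter (0.0528). Calls of Gm4951 in both WT groups, Gbp10 in both CD28KO groups and Ms4a4c in CD28KO pTreg were also lost when single libraries were omitted (adjusted p up to 0.0804 and 0.0789, 0.134 and 0.259, and 0.237). Ifitm3, an antiviral membrane protein, was called in all 4, with changes of 0.69, 0.91, 1.35 and 1.81. Its WT tTreg call was lost without WT tTreg replicate 1 or 3 (adjusted p = 0.0963 and 0.138), without WT Tconv replicate 2 or 3 (0.0643 and 0.131), without the filter (0.0539), after quantile normalization (0.48, adjusted p = 0.149) and in a fit to those groups alone (0.0765). Its WT pTreg call was lost without WT Tconv replicate 3 (0.0717) and in a fit to those groups alone (0.172). Ifitm2 was higher in tTreg than in pTreg by 1.67 in WT and 1.92 in CD28KO (limma adjusted p = 0.00306 and 0.00091). Of the 16 MHC class I and immunoproteasome genes, H2-Q6 was called in 3 of the 4 comparisons, at 1.42 in WT tTreg, 2.43 in CD28KO tTreg and 1.69 in CD28KO pTreg, and reads of the near-identical H2-Q genes may be shared. Tlr7, an endosomal sensor of single-stranded RNA, was the 1 gene of 8 tested nucleic acid receptors and adaptors that was called, with changes of 1.62, 1.11, 1.52 and 1.30. Its WT pTreg call was lost without WT pTreg replicate 2 or 3 (adjusted p = 0.0876 and 0.109), without WT Tconv replicate 1 or 3 (0.102 and 0.0708), without the filter (0.0648) and in a fit to those groups alone (0.165), and its CD28KO pTreg call without CD28KO Tconv replicate 1 (0.0534). No gene of these 3 lists was called between CD28KO and WT by limma. In Tconv, 13 of the 16 MHC class I and immunoproteasome genes, 8 of the 43 further interferon-induced genes and 0 of the 8 receptors and adaptors had an unadjusted p under 0.05, with median changes of -0.54, -0.29 and -0.26 beside -0.16 over all tested genes. No share of all genes under that unadjusted threshold was computed.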

How the data were processed

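RNA was sequenced from 18 libraries of sorted mouse spleen T cells, as single reads of 50 nt from NEBNext Ultra libraries of total RNA, per the labels. The values deposited by the authors are FPKM per gene symbol. Trimmomatic 1 and TopHat2 2.0.11 are listed with Cufflinks and the build GRCm38 per the submitters' processing notes. The unit was taken from Cufflinks and from the values, since the file headers do not name it. Annotation and strand setting are not given in the sources used here, so overlapping and antisense genes cannot be told apart. FPKM summed to between 514726 and 994139 per library. The number of reads per library is unknown, so no counting intervals are given.

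Values were analysed as log2(FPKM + 1) after a filter of 1 FPKM in at least 3 libraries. One mean per group was fitted to all 18 libraries with limma 3.58.1 in R 4.3.3, with a variance trend, 12 residual degrees of freedom and Benjamini-Hochberg adjustment over 12265 genes. The fit was tested on simulated data. The 9 comparisons of groups and the 3 differences of CD28 effects share libraries. Same-numbered libraries deviated together (every correlation over 0.1) in 6 of the 9 comparisons, which were taken as paired. Nothing states what libraries of a replicate number share, and the block was fitted once over all 18 libraries. Alternatives were a pseudocount of 0.1, no filter, no trend, only the groups compared, quantile normalization, the replicate block, omission of 3 libraries and omission of each library.

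The members, lists, alternatives and the 3 libraries left out were chosen with earlier results of these data known. Named are members called in any comparison, the most abundant member of each role, 7 members fixed by name (Irf1, Irf7, Stat2, Isg15, Ifit1, Gbp2 and Igtp), 4 pathway genes (Ifnar1, Ifngr1, Ifng and Socs1) and up to 4 called genes of each pathway list and comparison; other members appear as values. Some genes of the lists are not reported here by name.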

Additional observations from a re-analysis of the deposited data

How the results depend on the processing

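The number of called members depended on the setting. A pseudocount of 0.1 took CD28KO tTreg against CD28KO pTreg from 1 to 0, where calls over all genes went from 384 higher and 116 lower to 274 and 93. A fit to the groups compared alone gave 0 for CD28KO against WT Tconv, 4 for CD28KO tTreg against CD28KO pTreg, and 17 and 16 for CD28KO tTreg and pTreg against Tconv. Over all 12265 genes, it called 2 higher and 1 lower, 603 and 609, 1698 and 485, and 707 and 139 in these comparisons. Quantile normalization gave 1, 6 and 7 for CD28KO against WT in tTreg, pTreg and Tconv, 6 and 5 for tTreg against pTreg in WT and CD28KO, 16 and 14 for WT tTreg and pTreg against Tconv, and 19 and 17 for the CD28KO groups. Over all 12265 genes, it called 8 higher and 43 lower, 12 and 68, and 4 and 109 for CD28KO against WT. For tTreg against pTreg, these numbers were 652 and 421 in WT and 646 and 493 in CD28KO. Against Tconv, they were 1426 and 1672, 646 and 613, 1399 and 1416, and 729 and 530. In the main fit, 1022 were higher and 523 lower in WT tTreg against Tconv. Quantile normalization thus moved calls over all genes too. It moved the median change of all genes in CD28KO against WT pTreg from 0.19 to 0.02. The replicate block gave 7 for CD28KO against WT Tconv, 4 and 2 for tTreg against pTreg in WT and CD28KO, 12 and 7 for WT tTreg and pTreg against Tconv, and 16 and 18 for the CD28KO groups. WT pTreg and Tconv were not taken as paired, since their replicate 2 libraries had a correlation of 0.029, beside 0.508 and 0.438 for replicates 1 and 3. The block called 421 higher and 708 lower of all genes there. The block left CD28KO against WT in tTreg and pTreg, and all 3 differences of CD28 effects, at 0. For 17 of the 18 libraries, the closest deviations from the group mean were those of a same-numbered library.

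Without the 3 libraries that stood apart, the counts were 2, 10 and 16 for CD28KO against WT in tTreg, pTreg and Tconv, 10 and 4 for tTreg against pTreg, 14 and 13 for WT tTreg and pTreg against Tconv, and 22 and 25 for the CD28KO groups. Omitting each library in turn gave 0 to 5 for CD28KO against WT pTreg, 0 to 15 for Tconv, 1 to 7 and 1 to 3 for tTreg against pTreg in WT and CD28KO, 6 to 13 and 2 to 10 for WT tTreg and pTreg against Tconv, and 9 to 17 and 4 to 22 for the CD28KO groups. The highest count came without WT pTreg replicate 1 in each case. Over all genes, that omission called 1183 higher and 208 lower in CD28KO pTreg against Tconv, beside 589 and 129 in the main fit. In WT tTreg against pTreg it called 395 and 196, beside 545 and 60. CD28KO against WT tTreg and the 3 differences of CD28 effects stayed at 0. Having no filter or no trend moved no count by over 1.5 times, and the cause of the other shifts was not tested. Over 122 selected changes of single genes, of which 82 were called, no setting turned a direction. A call ended in 179 pairs of a gene change and a setting and was made in 51. Directions of other members did turn. For the CD28 effect in tTreg minus that in pTreg, 36 of 47 members were below 0 in the main fit, beside 88.7% of all genes. Without the 3 libraries that stood apart, 6 were, beside 46.8% of all genes.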
